A study of Mus musculus with 10 samples.

Results

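The nuclear genes that encode the mitochondrial respiratory chain and its ATP synthase were followed in lens epithelium from wild-type (WT) mice and from the transgenic lines OVE853 and OVE918. Members were taken by symbol: every gene of the count table named as an Nduf, Sdh, Uqcr, Cox4 to Cox8 or Atp5 gene, with at least 100 counts summed over the 10 libraries. The rule matched 101 symbols, 97 of which reached the minimum (48 in complex I, 4 in complex II, 8 in complex III, 19 in complex IV and 18 in complex V), out of 50763 genes in the table. The members were set by symbol and not by a measured difference between groups, though earlier results of these data were known. All mice were 3 weeks old and on an FVB/N background, with males and females in equal number. The 3 WT libraries each came from pooled tissue of up to 9 mice, the 3 OVE853 libraries from up to 9 mice and the 4 OVE918 libraries from up to 7 mice. OVE853 and OVE918 are separately derived families, used as homozygotes, in which the lens-specific αA-crystallin promoter drives a self-activating human TGF-β1 in lens cells and anterior subcapsular plaques develop. The whole explanted epithelium was used, so plaque cells and the epithelium around the plaque entered the same library. Each group is a set of pools rather than of single animals, and the p-values below measure the spread between pools.

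The respiratory chain passes electrons from NADH (complex I) and succinate (complex II) through complex III and cytochrome c to complex IV, which reduces oxygen, and the proton gradient built on the way drives ATP synthase (complex V). Most subunits are encoded in the nucleus, and a few catalytic subunits of complexes I, III, IV and V are encoded by the mitochondrial genome. The lens lies in a poorly oxygenated compartment, and mitochondria persist in its epithelium and outer fibers while mature fiber cells lose theirs. Several complex IV subunits exist as isoforms, one made in most tissues and another restricted to muscle, lung, testis or cells kept at low oxygen.

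Total counts per library ranged from 24073311 to 31908525, and levels are given as CPM, counts scaled to TMM-adjusted library totals. Of the 97 members, 93 reached 2 FPKM in 5 or more libraries and were tested, among 11108 genes. The 4 others (Cox6a2, Cox7a1, Cox8b and Ndufb4c) are given as levels. For the complex IV isoforms among them, values from a fit with a lower filter (filterByExpr) are added. Tgfb1, which checks the labels, was 49.8 to 60.8 CPM in WT, 334 to 356 in OVE853 and 705 to 868 in OVE918. Differences are log2 fold changes (log2FC) with a false discovery rate (FDR) from the quasi-likelihood test of edgeR, adjusted over all 11108 genes by Benjamini-Hochberg, and "called" means an FDR of at most 0.05. Differentially expressed genes (DEGs) also had an absolute log2FC of at least 1. In libraries of whole tissue, fewer cells of a type and less RNA per cell cannot be told apart. Lens epithelium markers (8 genes, Cryaa, Foxe3 and Pax6 among them, with no marker at 0) summed to 151440.0 to 156552 CPM in WT, 102875 to 117150.0 in OVE853 and 126967 to 193248 in OVE918. Most of this sum was Cryaa, so it is no measure of the number of epithelial cells. Of the 8 genes, 3 had a positive log2FC in OVE853 and 5 a negative one. Lens fiber markers (10 genes, Cryba1, Crybb2 and Mip among them, with no marker at 0) summed to 83835 to 101876 CPM in WT and 51271 to 80045 in OVE853, and OVE918 replicates 1 and 4 (141351 and 153481) lay above OVE918 replicates 2 and 3 (75256 and 107358). WT replicate 3 held more of 13 retinal neuron markers (sum 1093 CPM against 108 and 132 in the other WT libraries), and also of photoreceptor markers (111 against 40.2 and 28.3) and pigmented epithelium markers (366 against 175 and 85.6).

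Each line was compared with WT, and the lines with each other, to ask which changes they share. In OVE853 the nuclear respiratory chain transcripts lay below WT in every complex, by a similar and modest amount, while 2 isoform genes of complex IV, Ndufa4l2 and Cox4i2, rose. Summed over the 97 members, the level was 7028, 7204 and 7767 CPM in the WT libraries and 6102, 6307 and 5871 CPM in the OVE853 libraries. The groups did not overlap, and the mean of OVE853 (6093 ± 218, SD, n = 3) was 0.831 times that of WT (7333 ± 386, SD, n = 3). By complex, OVE853 stood at 0.821, 0.821, 0.824, 0.869 and 0.824 times WT in complexes I to V, again without overlap. The value for complex IV mixes falls and rises. Its 11 widely expressed subunits alone stood at 0.785 times WT, a deeper fall than in the other complexes. The pair of Ndufa4 and Ndufa4l2 stood at 1.72 and the restricted isoforms at 1.25 times WT. Per gene, the log2FC was negative for 84 of 93 members, with a median of -0.33, beside -0.01 over all genes tested, 48.7% of which had a log2FC above 0. For 68 of 93 members all 3 OVE853 libraries lay below all 3 WT libraries, a pattern found in 22% of all genes tested, and for 2 members all lay above, against 23.4% of all genes.

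In the edgeR test single genes rarely passed the adjusted threshold. At FDR 0.05, 6 members fell (Ndufb9, Ndufb10, Ndufv1, Sdha, Uqcrc1 and Cox8a), beside 7.7% of all genes tested, and 2 rose (Ndufa4l2 and Cox4i2), beside 8.12%. The 2 that rose were the only member DEGs, against 2.51% of all genes called as higher DEGs and 1.91% as lower DEGs. Another 44 members had an unadjusted p under 0.05, which made 52 of 93, beside 3794 of 11108 genes. DESeq2 and limma-voom called 28 and 57 members lower, beside 1319 and 1986 of all genes. The count of 6 depended on single libraries: it was 19 without WT replicate 1, 3 without WT replicate 2, 1 without WT replicate 3 or any 1 OVE853 library, 1 without OVE918 replicate 1, 2 without OVE918 replicate 3 and 46 without OVE918 replicate 4, the last of which enters through the spread shared by the 3 groups. The log2FC stayed negative for at least 81 members in each of these fits. Over all genes 855 were called lower in the main fit, 1317 without WT replicate 1 and 1216 without OVE918 replicate 4. That number was 563 without WT replicate 3 and 324 to 372 without any 1 OVE853 library.

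In OVE918 the same genes lay near or above WT, with a wide spread between the 4 libraries. The sum over all members was 8070.1, 6879, 7209 and 9510.4 CPM, so that OVE918 replicates 1 and 4 were above every WT library and replicates 2 and 3 were not. By complex, OVE918 stood at 1.10, 0.912, 1.11, 1.14 and 1.05 times WT, which was the same set of 3 libraries as for OVE853. The median log2FC against WT was 0.12 (all genes 0.01), with 67 of 93 members positive against 52.1% of all genes. All OVE918 libraries lay above all WT libraries for 10 members (all genes 12.3%) and below for 1, Sdha (all genes 15%). Called members were Ndufa4l2, Ndufa1, Ndufc1 and Cox6c as higher (all genes 7.98%) and Sdha as lower (all genes 11%), and Ndufa4l2 was the only DEG (all genes 2.58% higher and 3.02% lower). The count of 4 was 2 without WT replicate 2 and 8 without OVE918 replicate 2, beside 886, 609 and 814 of all genes in these fits. The median of the members was -0.01 without OVE918 replicate 4, and without replicates 1 and 4, left out after the data were seen, it was -0.07 with 1 member called higher.

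Tested directly, OVE918 lay above OVE853 for most members, but few differences were called. The median log2FC of OVE918 against OVE853 was 0.41 over the members and -0.02 over all genes, and 88 of 93 members were positive (all genes 46.5%). In 64 of 93 members all OVE918 libraries exceeded all OVE853 libraries, against 13.3% of all genes, and for 1, Ndufa4l2, they were all lower, against 16.1%. At FDR 0.05 Cox6c and Cox7b were higher in OVE918 (all genes 0.369%) and 0 members were lower (all genes 0.927%) or DEGs (all genes 0.072% higher and 0.414% lower) in the edgeR test, where 70 members had an unadjusted p under 0.05, beside 2539 of 11108 genes. With DESeq2 the counts were 42 higher and 1 lower (all genes 513 and 443), and with limma-voom 60 and 1 (all genes 984 and 1177). Without OVE918 replicate 2 the count of higher members was 33 (all genes 278) and without WT replicate 3 it was 8 (all genes 146). It was 1 without WT replicate 1, OVE918 replicate 3 or OVE918 replicate 4 (all genes 58, 15 and 17). It was 0 without WT replicate 2, OVE918 replicate 1 or any 1 OVE853 library (all genes 15, 2 and 1 to 2). Without OVE918 replicates 1 and 4 together the median was 0.21 with 0 members called. Scaling by library totals alone moved the median of all genes to -0.20 and that of the members to 0.22, so that the members lay above the median of all genes on that scale too.

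**Figure D1:**
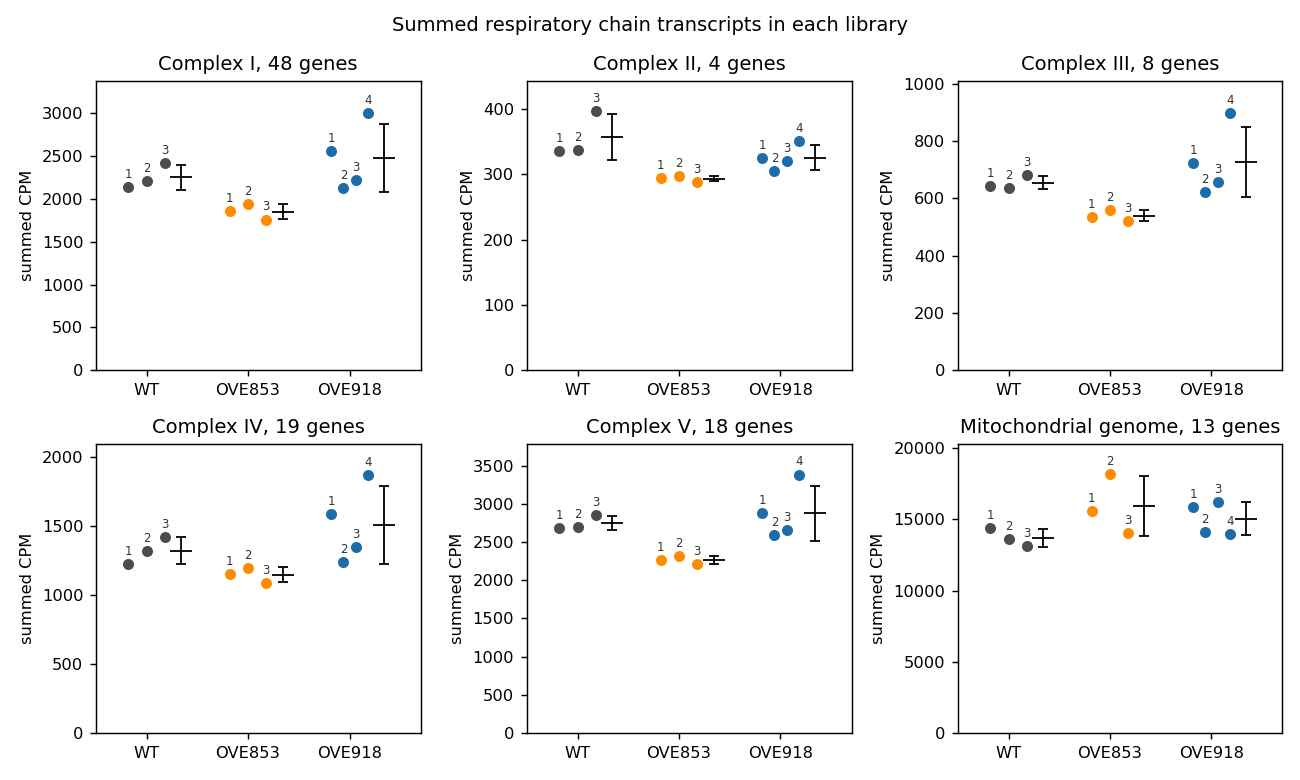
Summed CPM of the member genes of complexes I to V and of the 13 genes of the mitochondrial genome, with 1 point per library, the replicate number above it, and a bar for the mean ± SD of the group. OVE853 libraries lie below the WT libraries in all 5 complexes, OVE918 replicates 4 and 1 are the highest libraries in complexes I, III, IV and V, and the mitochondrial genome shows no such fall in OVE853.

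Complex I, the NADH dehydrogenase, had the most members. Its 7 nuclear core subunits, which carry the flavin and the iron-sulfur clusters, had a median log2FC of -0.23 in OVE853 and -0.04 in OVE918. Ndufv1, which binds the flavin and accepts electrons from NADH, was 51.6, 47.1 and 73.1 CPM in WT, 42.4, 37.2 and 42.6 in OVE853 and 47.0, 44.7, 42.5 and 50.6 in OVE918, and it fell in OVE853 (log2FC -0.49, SE 0.15, edgeR FDR 0.0491). WT replicate 3 stood above the other WT libraries for this gene, and without it the FDR was 0.118. The call was lost in 14 of 21 other settings. Ndufs1, the largest core subunit, had a log2FC of -0.12 and -0.04 and overlapping groups.

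The 30 accessory subunits of complex I, which surround and stabilise the core, had a lower median in OVE853 (-0.40, with 23 of 30 below all WT libraries, all genes 22%) and 0.09 in OVE918. Ndufb9, a subunit of the membrane arm, was 45.6, 50.7 and 66.7 CPM in WT, 36.8, 34.9 and 34.7 in OVE853 and 53.3, 40.8, 47.2 and 64.8 in OVE918. OVE853 lay below every WT library, and OVE918 overlapped WT. Ndufb9 fell in OVE853 (log2FC -0.62, SE 0.17, edgeR FDR 0.0372), and so did Ndufb10, another membrane-arm subunit (log2FC -0.55, SE 0.16, edgeR FDR 0.0444). Without WT replicate 3, the highest WT library for both, their FDR were 0.112 and 0.131, and the calls were lost in 8 and 10 of 21 other settings. Against this pattern stood Ndufa1, a small X-linked membrane-arm subunit (ENSMUSG00000016427.9, chrX:36451241-36454849, GRCm39). It was 186, 161 and 105 CPM in WT, 176, 186 and 148 in OVE853 and 303, 258, 240.1 and 338 in OVE918, so that OVE918 lay above both other groups, which overlapped. Ndufa1 rose in OVE918 (log2FC 0.92, SE 0.19, edgeR FDR 0.00656, 1.89-fold), and its log2FC in OVE853 was 0.18 (edgeR FDR 0.549). The direct test of OVE918 against OVE853 gave log2FC 0.74, SE 0.19, edgeR FDR 0.0775. Ndufc1, also of the membrane arm, was 39.7 to 44.7 CPM in WT, 35.9 to 45.2 in OVE853 and 53.3 to 78.4 in OVE918, and rose in OVE918 (log2FC 0.54, SE 0.14, edgeR FDR 0.0222). Without OVE918 replicates 1 and 4 the FDR of both rises was above 0.05 (0.0683 for Ndufa1 and 0.0739 for Ndufc1), and Ndufc1 was also not called without WT replicate 2 (0.0659) or WT replicate 3 (0.0727).

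The 8 assembly factors named Ndufaf1 to Ndufaf8, which build complex I without being part of it, had the median log2FC nearest to 0 in OVE853 among the parts of complex I (-0.18, and 0.02 in OVE918), and none was called in the edgeR test. Of these, 4 had an unadjusted p under 0.05 in OVE853 and 0 in OVE918 (all genes 3794 and 3688 of 11108). DESeq2 called 2 of them lower in OVE853, and limma-voom 1 higher and 3 lower. Neither tool called any in OVE918. Over all genes DESeq2 called 1219 higher and 1319 lower in OVE853, and 1241 and 1488 in OVE918. Limma-voom called 2083 higher and 1986 lower of all genes in OVE853, and 1404 and 1578 in OVE918. Ndufaf1 had a log2FC of 0.39 in OVE853, the largest positive value of complex I there (edgeR FDR 0.102). Ndufb4b, Ndufb4c and Ndufs6b, genes named as copies of Ndufb4 and Ndufs6, stayed between 0.238 and 1.43 CPM, and reads that map to several copies were not counted, so their levels are uncertain.

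Complex II, succinate dehydrogenase, is the only complex whose subunits are all nuclear, and it belongs to the TCA cycle as well. Its flavoprotein gene Sdha (ENSMUSG00000021577.16, chr13:74469359-74498436, GRCm39) was the one member called lower in both lines, each against the same WT libraries. It was 161, 161 and 204 CPM in WT, 128, 122 and 127 in OVE853 and 122, 126, 131 and 128 in OVE918. Both transgenic groups lay below every WT library and overlapped each other. Sdha fell in OVE853 (log2FC -0.48, SE 0.10, edgeR FDR 0.0113, 0.718 times WT) and in OVE918 (log2FC -0.47, SE 0.09, edgeR FDR 0.00573, 0.723 times WT). The OVE918 fall was called in all 21 other settings tried and the OVE853 fall in 20, the exception being library totals without scaling (FDR 0.0803). Of the other subunits, Sdhc, a membrane anchor, was 47.6 ± 8.27 CPM (SD, n = 3) in WT, 37.3 ± 2.39 (n = 3) in OVE853 and 41.6 ± 2.97 (n = 4) in OVE918. OVE853 lay just below every WT library and OVE918 overlapped WT, and neither value was called (log2FC -0.35 and -0.20, edgeR FDR 0.0768 and 0.268). Sdhb, the iron-sulfur subunit, had a log2FC of -0.12 and 0.25 in OVE853 and OVE918, and Sdhd, the other anchor, 0.05 and 0.19, none of them called.

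In complex III, the cytochrome bc1 complex, all 8 members had a negative log2FC in OVE853 (median -0.32) and 7 of 8 a positive one in OVE918 (median 0.14). Uqcrc1, a core subunit of the matrix side, was 104, 88.0 and 112 CPM in WT, 80.2, 77.1 and 78.3 in OVE853 and 86.6, 87.1, 90.0 and 108 in OVE918, where only OVE853 lay apart from WT. Uqcrc1 fell in OVE853 (log2FC -0.37, SE 0.11, edgeR FDR 0.0492), a call close to the threshold that was lost in 12 of 21 other settings, with an FDR of 0.13 without WT replicate 3. Uqcrfs1, the Rieske iron-sulfur protein, differed less (-0.14 in OVE853 and 0.14 in OVE918, not called). Uqcr10, a small subunit and the gene of complex III with the highest WT level per length (119 ± 9.43 FPKM, SD, n = 3), had a log2FC of -0.42 and 0.03, and Uqcrh, the hinge protein, -0.23 and 0.32, again not called.

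Complex IV, cytochrome c oxidase, held widely expressed subunits with similar values as well as the members with the largest rises. Its 11 widely expressed subunits all had a negative log2FC in OVE853 (median -0.35, 10 of 11 below all WT libraries, all genes 22%) and a median of 0.17 in OVE918. Cox8a, a small subunit of the membrane part, was 151, 157 and 161 CPM in WT, 109, 123 and 109 in OVE853 and 161, 144, 134 and 195 in OVE918, and fell in OVE853 (log2FC -0.46, SE 0.13, edgeR FDR 0.0386; FDR 0.0833 without WT replicate 3, lost in 8 of 21 other settings). Cox4i1, the regulatory subunit that binds ATP, lay at 227 to 308 CPM in WT, 192 to 211 in OVE853 and 211 to 339 in OVE918 and was not called (-0.43 and -0.02). Cox6c and Cox7b, small accessory subunits, were the members that differed between the lines. Cox6c was 98.5, 98.8 and 105 CPM in WT, 87.3, 95.0 and 81.9 in OVE853 and 151, 125, 121 and 181 in OVE918, and the 3 groups did not overlap. It rose in OVE918 against WT (log2FC 0.52, SE 0.13, edgeR FDR 0.0199), a call lost in 4 of 21 other settings, and was higher in OVE918 than in OVE853 (log2FC 0.72, SE 0.13, edgeR FDR 0.039). Cox7b was 83.1, 86.8 and 87.9 CPM in WT, 67.6, 78.4 and 70.7 in OVE853 and 116, 93.9, 98.1 and 142 in OVE918, again without overlap. Cox7b was higher in OVE918 than in OVE853 (log2FC 0.64, SE 0.13, edgeR FDR 0.0487), whereas neither line was called against WT (-0.25 and 0.39). Neither difference between the lines was called without WT replicate 2, OVE918 replicate 1 or any 1 OVE853 library, with FDR up to 0.195 for Cox6c and 0.224 for Cox7b, and Cox7b was also not called without WT replicate 1, OVE918 replicate 3 or OVE918 replicate 4. Over all 21 other settings the Cox6c call was lost in 8 and the Cox7b call in 13. The remaining isoforms that are made in most tissues, Cox6a1, Cox6b1, Cox7a2 and Cox7a2l, had log2FC of -0.44, -0.35, -0.27 and -0.37 in OVE853 and 0.03, 0.17, 0.24 and -0.05 in OVE918, and none was called.

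**Figure D2:**
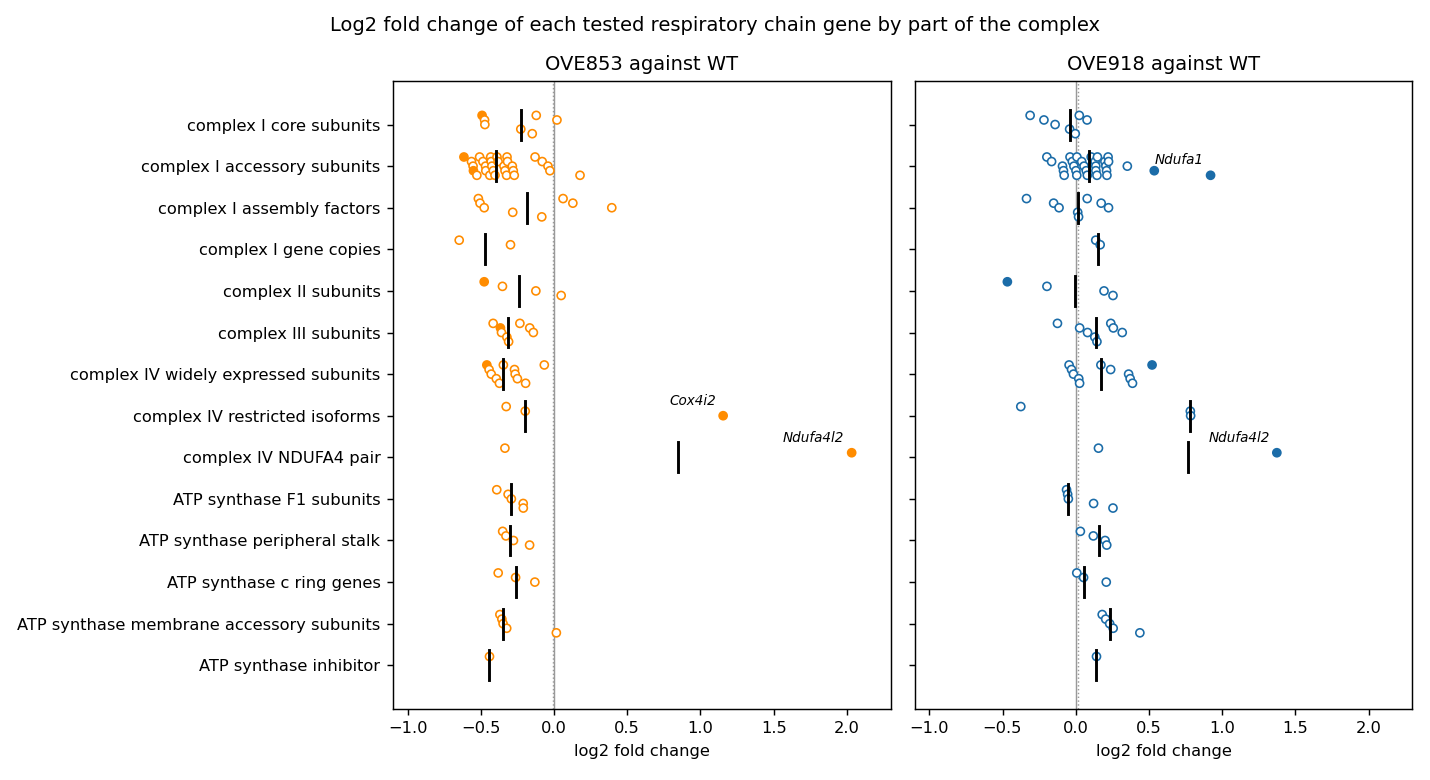
Log2 fold change of each of the 93 tested members against WT, by part of the complex, for OVE853 (left) and OVE918 (right). Filled points have an FDR of at most 0.05, open points do not, the black bar is the median of the part and the dotted line the median of all genes tested. In OVE853 all but 9 members lie left of 0, and Ndufa4l2 and Cox4i2 stand apart on the right.

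The strongest rise of any member was that of Ndufa4l2 (ENSMUSG00000040280.12, chr10:127350818-127353038, GRCm39), the paralog of the complex IV subunit gene Ndufa4, known as a target of hypoxia-inducible factor. Ndufa4l2 was 25.0, 38.5 and 26.9 CPM in WT, 149, 101 and 119.9 in OVE853 and 99.3, 55.4, 87.5 and 70.4 in OVE918. The 3 groups did not overlap, and OVE918 lay between WT and OVE853. It rose 4.09-fold in OVE853 (log2FC 2.03, SE 0.24, edgeR FDR 0.000421) and 2.59-fold in OVE918 (log2FC 1.37, SE 0.23, edgeR FDR 0.00186), and both calls held in all 21 other settings. The difference between the lines was not called (log2FC -0.66, SE 0.22, edgeR FDR 0.126). Ndufa4 itself was 72.7, 75.8 and 84.0 CPM in WT, 57.5, 71.4 and 55.3 in OVE853 and 91.2, 68.2, 78.4 and 108 in OVE918 and was not called (-0.34 and 0.16). Per length, Ndufa4l2 made up 17.5% ± 3.72 (SD, n = 3) of the FPKM of the pair in WT, 52.2% ± 7.81 (n = 3) in OVE853 and 33.1% ± 5.53 (n = 4) in OVE918. The single libraries did not overlap between groups in this share.

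Cox4i2 (ENSMUSG00000009876.15, chr2:152595625-152606959, GRCm39), the isoform of Cox4i1 found in lung and favoured at low oxygen, was also highest in OVE853, at a lower level. Cox4i2 was 5.99, 7.28 and 11.8 CPM in WT, 22.5, 15.1 and 18.3 in OVE853 and 18.8, 9.57, 14.4 and 15.0 in OVE918. OVE853 lay above every WT library, while OVE918 replicate 2 lay within the WT range. The rise in OVE853 was called (log2FC 1.15, SE 0.28, edgeR FDR 0.0221, 2.23-fold) and the value in OVE918 was not (log2FC 0.78, SE 0.27, edgeR FDR 0.0664). The OVE853 call was lost without WT replicate 2 (FDR 0.0648), OVE853 replicate 1 (FDR 0.0883) or OVE853 replicate 3 (FDR 0.0639), and Cox4i2 in OVE918 had an FDR of 0.0148 without WT replicate 3 and of 0.0289 without OVE918 replicate 2. Of the FPKM of Cox4i1 and Cox4i2, Cox4i2 held 3.05% ± 0.648 in WT, 8.84% ± 1.91 in OVE853 and 5.34% ± 1.09 in OVE918 (SD, n = 3, 3 and 4). Both genes are also expressed in pericytes and vascular smooth muscle. The 8 smooth muscle markers, 7 of which had counts in every library and Cnn1 in all but 1, summed to 117 to 169 CPM in WT, 115 to 149 in OVE853 and 203 to 350.3 in OVE918, and 7 endothelial markers to 55.3 to 138, 41.7 to 56.5 and 47.9 to 67.7 CPM. Both sums overlapped between WT and OVE853, where the 2 genes were highest. The endothelial sum in WT was 57.4, 55.3 and 138 CPM in replicates 1 to 3. Of these markers 3 were tested, and they went different ways. Their log2FC ran from -2.25 to 1.43 in OVE853 and from -2.32 to 2.01 in OVE918. In OVE918 1 of them was called higher (all genes 7.98%). Of the 2 smooth muscle markers that were tested, Acta2 had a log2FC of -0.27 in OVE853 (edgeR FDR 0.382) and rose in OVE918 (0.65, edgeR FDR 0.0441), and Tagln rose in both lines (3.24 and 4.46, edgeR FDR 0.0104 and 0.00109). The part of such cells in the rises of Ndufa4l2 and Cox4i2 was not tested.

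**Figure D3:**
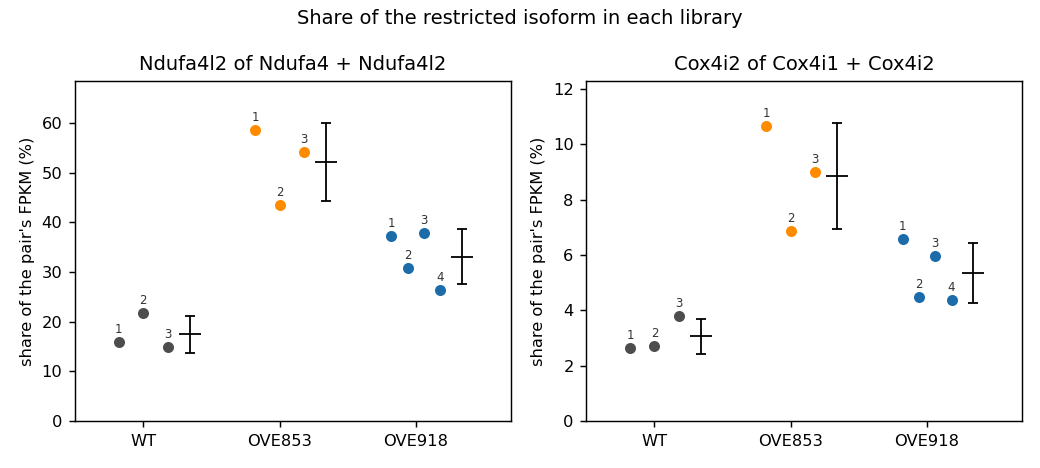
Share of Ndufa4l2 in the summed FPKM of Ndufa4 and Ndufa4l2 (left) and of Cox4i2 in that of Cox4i1 and Cox4i2 (right), in percent, with 1 point per library, its replicate number, and the mean ± SD of the group. Ndufa4l2 holds under 22% in each WT library and over 43% in each OVE853 library, and all OVE918 libraries lie between.

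Most of the remaining restricted isoforms of complex IV were at low levels. Cox8b (ENSMUSG00000025488.11, chr7:140477069-140480359, GRCm39), the heart and skeletal muscle isoform of subunit 8, was 4.67, 1.82 and 3.18 CPM in WT, 0.297, 0.329 and 0.335 in OVE853 and 0.802, 0.183, 0.183 and 0.545 in OVE918, so that all 7 transgenic libraries lay below all WT libraries. It did not reach the level needed for the main test. In the fit with filterByExpr its log2FC was -3.30 in OVE853 and -2.90 in OVE918 (edgeR FDR 0.00473 and 0.00282). Cox6a2, the muscle isoform of subunit 6a, was 0.176 to 0.242 CPM in WT, 0.235 to 0.565 in OVE853 and 0.477 to 0.844 in OVE918, and Cox7a1, the muscle isoform of subunit 7a, 0.969 to 1.29, 0.714 to 1.07 and 0.440 to 0.773 CPM, both too low for the test. Their counts per library were at most 36. With filterByExpr the log2FC of Cox6a2 was 1.13 in OVE853 and 1.68 in OVE918 (edgeR FDR 0.114 and 0.0219). That of Cox7a1 was -0.47 and -1.02 (edgeR FDR 0.343 and 0.0466). The 14 striated muscle markers summed to 8.43 to 9.69 CPM in WT, 9.89 to 12.3 in OVE853 and 12.8 to 21.0 in OVE918. Markers of the non-pigmented ciliary epithelium, like Cox8b, were lower in every transgenic library than in every WT library. Their sum was 830.3 to 1257 CPM in WT, 250.3 to 292 in OVE853 and 182 to 305 in OVE918. The part of such cells in the level of Cox8b was not tested. Cox6b2, the testis isoform of subunit 6b, overlapped between groups (7.40 to 10.8 CPM in WT, 6.39 to 7.44 in OVE853, 4.95 to 8.09 in OVE918).

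**Figure D4:**
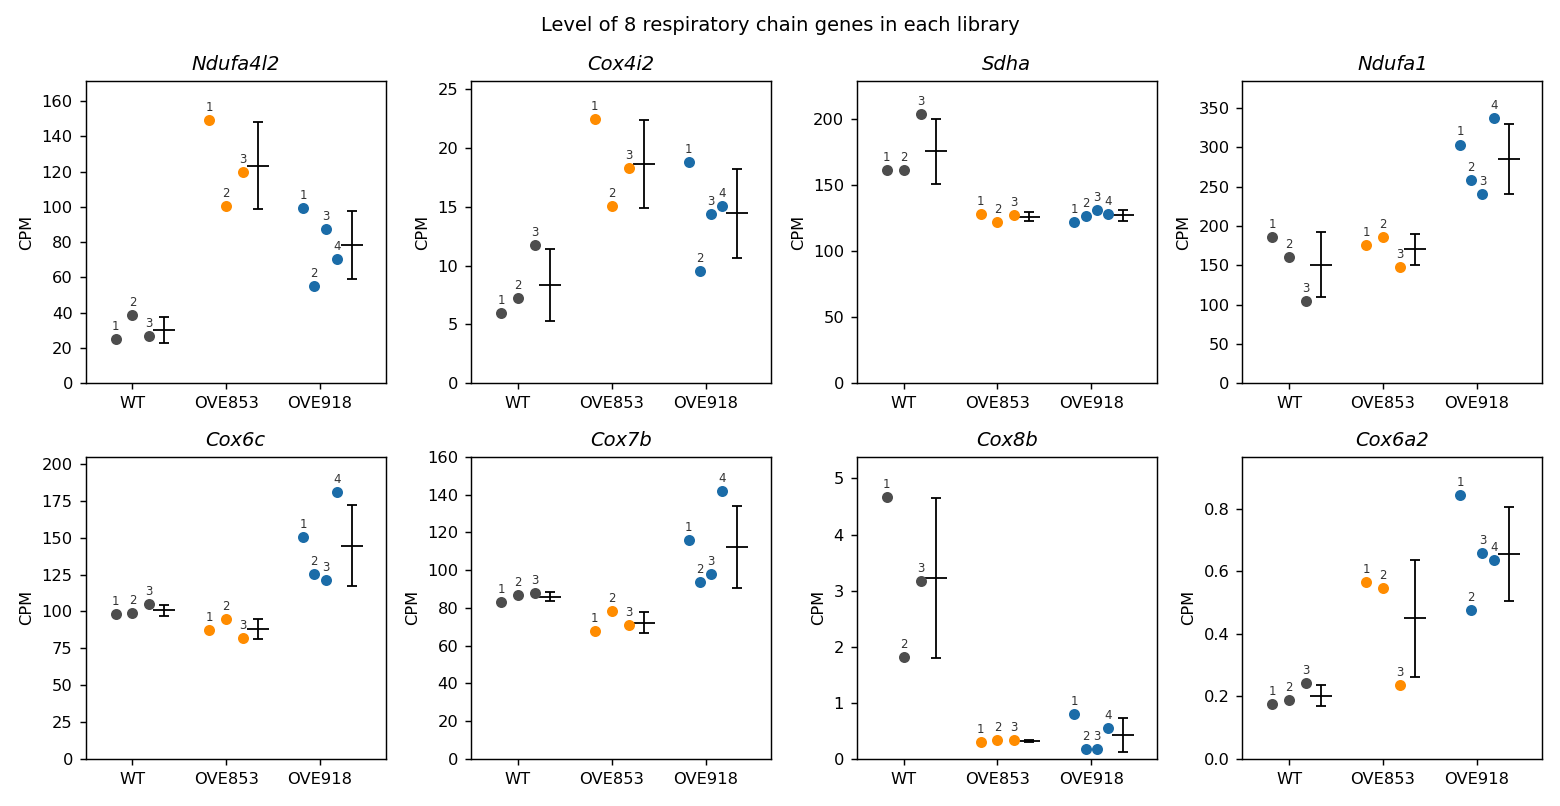
CPM of 8 members in each library (1 point per library with its replicate number, mean ± SD beside it). Ndufa4l2 and Cox4i2 are highest in OVE853, Sdha is lower in all transgenic libraries, Ndufa1, Cox6c and Cox7b are highest in OVE918, and Cox8b and Cox6a2 are shown on scales of a few CPM or less.

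To show the sequence upstream of genes with differing patterns, the 250 bases before the annotated start are given 5′ to 3′ for Sdha (lower in both lines), Ndufa1 (higher in OVE918) and Cox8b (under 1 CPM in every transgenic library), as RefSeq gives them on GRCm38.p6, an earlier build than that of the counts. Capitals mark the NRF1 core TGCGCA or the ETS motif CCGGAAG on either strand, which are bound by factors known to drive respiratory chain genes.
Sdha, chr13:74350241-74350490, minus strand: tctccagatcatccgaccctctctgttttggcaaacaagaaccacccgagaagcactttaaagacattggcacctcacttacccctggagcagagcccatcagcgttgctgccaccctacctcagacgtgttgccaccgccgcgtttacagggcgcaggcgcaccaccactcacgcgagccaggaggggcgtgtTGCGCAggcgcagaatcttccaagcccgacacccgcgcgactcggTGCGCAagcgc
Ndufa1, chrX:37191239-37191488, minus strand: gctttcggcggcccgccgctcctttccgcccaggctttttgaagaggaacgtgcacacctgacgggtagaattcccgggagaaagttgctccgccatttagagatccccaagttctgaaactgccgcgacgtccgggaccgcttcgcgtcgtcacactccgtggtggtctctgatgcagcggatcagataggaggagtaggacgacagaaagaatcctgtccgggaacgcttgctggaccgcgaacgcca
Cox8b, chr7:140900447-140900696, minus strand: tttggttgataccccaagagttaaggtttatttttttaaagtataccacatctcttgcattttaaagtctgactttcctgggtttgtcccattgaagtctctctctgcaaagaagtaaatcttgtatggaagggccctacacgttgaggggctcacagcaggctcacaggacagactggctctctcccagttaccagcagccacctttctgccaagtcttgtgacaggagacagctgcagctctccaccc
Sdha held TGCGCA at 2 places, and the windows of Ndufa1 and Cox8b held neither motif. Of the 97 members, 76 had an entry, in part under older symbols. Within these windows TGCGCA was present in 19.7% of the members, 13.1% of the tested genes with an entry and 6.66% of all promoters, and CCGGAAG in 17.1%, 14.8% and 7.05%. Another 4 motifs were searched on both strands: the hypoxia-response core ACGTG (21.1% of members and 22.7% of tested genes), the GC box GGGCGG (38.2% and 62.4%), TATAAA (6.58% and 5.80%) and the YY1 motif AAGATGGC (0% and 2.19%). These matches are a description of letters and no evidence of binding.

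In complex V, the ATP synthase, nearly every subunit lay on the same side of WT in OVE853. All 18 members but 1 had a negative log2FC in OVE853 (median -0.32, 17 of 18 below all WT libraries, all genes 22%), and all 18 were higher in every OVE918 library than in every OVE853 library (median log2FC 0.43, all genes 13.3%), yet none was called in the edgeR test. At an unadjusted p under 0.05 there were 10 in OVE853, 1 in OVE918 and 17 between the lines, beside 3794, 3688 and 2539 of 11108 genes. DESeq2 called 5 lower, 1 higher and 14 higher, beside 1319 lower, 1241 higher and 513 higher of all genes. Limma-voom called 15 lower, 0 higher and 14 higher, beside 1986 lower, 1404 higher and 984 higher of all genes. Atp5f1b, the catalytic beta subunit of the F1 head, was 772, 699.7 and 742 CPM in WT, 604, 600.5 and 577 in OVE853 and 705, 679.5, 681 and 785 in OVE918. OVE853 lay below both other groups, and the fit put Atp5f1b just outside the threshold (log2FC -0.31, SE 0.10, edgeR FDR 0.0508). The 5 F1 subunits had a median of -0.29 in OVE853 and -0.05 in OVE918, the 4 genes of the peripheral stalk -0.30 and 0.16, and the 5 accessory subunits of the membrane part -0.35 and 0.23. The exception in OVE853 was Atp5mk, a small membrane subunit (0.02 in OVE853 and 0.44 in OVE918, edgeR FDR 0.954 and 0.0616). Atp5mc1, Atp5mc2 and Atp5mc3, which encode the same mature c-ring protein with different import sequences, had log2FC of -0.38, -0.13 and -0.26 in OVE853, and their shares of the summed FPKM in WT and OVE853 were 35.0% and 32.3%, 25.9% and 28.4%, and 39.2% and 39.3%. Atp5if1, the inhibitor that blocks ATP hydrolysis, had a log2FC of -0.44 in OVE853 and 0.14 in OVE918 and was not called.

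The 13 protein-coding genes of the mitochondrial genome did not share the negative values of the nuclear genes in OVE853. Their summed level was 14403, 13629 and 13142 CPM in WT, 15606, 18221 and 14036 in OVE853 and 15877, 14146, 16205 and 14012 in OVE918. OVE853 and OVE918 overlapped WT in this sum. All 13 had a log2FC above 0 in OVE853 (median 0.40) and 12 in OVE918 (median 0.19). All libraries of the line lay above all WT libraries for 7 of 13 in OVE853 (all genes 23.4%) and 2 of 13 in OVE918 (all genes 12.3%). ATP6, the proton channel subunit of ATP synthase, was 30.2, 33.2 and 29.0 CPM in WT, 41.8, 57.1 and 41.3 in OVE853 and 37.6, 44.0, 38.3 and 37.6 in OVE918 and rose in OVE853 (log2FC 0.60, edgeR FDR 0.0132). ND6, the one complex I gene on the light strand, was 4.63, 6.03 and 3.97 CPM in WT, 9.79, 13.6 and 9.72 in OVE853 and 8.61, 9.10, 19.3 and 7.32 in OVE918, and rose in both lines (log2FC 1.18 and 1.19, edgeR FDR 0.0432 and 0.0294). The ND6 calls were lost in 11 and 3 of 21 other settings, among them 8 and 2 of the 10 fits with 1 library left out, and the ATP6 call in 0. Reads that also match nuclear copies of mitochondrial DNA were not counted, so levels should not be compared between mitochondrial genes. The difference between the nuclear and the mitochondrial genes was not tested.

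Other genes of mitochondrial energy metabolism were counted in the same fit. Of 19 genes of the TCA cycle and pyruvate entry, 7 fell in OVE853 (median -0.32, all genes 7.7% lower) and none was called higher. In OVE918 2 of 19 fell (median -0.16), a share near the 11% of all genes called lower. Suclg2, the GTP-specific beta subunit of succinyl-CoA ligase and thus the step before succinate dehydrogenase, was 86.3, 100.5 and 91.9 CPM in WT, 59.1, 68.5 and 65.3 in OVE853 and 60.3, 63.2, 58.2 and 54.3 in OVE918. Both lines lay below every WT library. Suclg2 fell in both lines (log2FC -0.53 and -0.65, edgeR FDR 0.00486 and 0.000494), as did Ogdh, of the 2-oxoglutarate dehydrogenase complex (log2FC -0.41 and -0.50, edgeR FDR 0.0196 and 0.00325). Mpc2, of the mitochondrial pyruvate carrier, fell in OVE853 (log2FC -0.73, edgeR FDR 0.016). Of 7 adenine nucleotide carrier, porin and uncoupling genes, Slc25a4, the ADP/ATP translocase, and Vdac3, a porin of the outer membrane, fell in OVE853 (log2FC -0.45 and -0.37, edgeR FDR 0.0391 and 0.0214). Of 9 genes of the cristae, Chchd6 fell in OVE853 (log2FC -0.55, edgeR FDR 0.0286). Both Suclg2 calls and the OVE918 call of Ogdh were kept in all 21 other settings, whereas in OVE853 the call was lost in 3 for Ogdh, 3 for Mpc2, 10 for Slc25a4, 6 for Vdac3 and 4 for Chchd6.

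Genes of assembly, import and biogenesis gave a few calls in each list at most. Of all genes 8.12% were called higher and 7.7% lower in OVE853, and 7.98% and 11% in OVE918. Of 21 complex IV assembly genes, Coa3 fell in OVE853 (log2FC -0.40, edgeR FDR 0.0307), and Higd1a, a hypoxia-inducible protein bound to complex IV, and Coa6 rose in OVE918 (log2FC 0.72 and 0.39, edgeR FDR 0.00164 and 0.0135). Higd1a was 66.8, 54.2 and 55.7 CPM in WT, 74.5, 75.8 and 66.6 in OVE853 and 91.7, 88.6, 91.3 and 116 in OVE918, with every OVE918 library above all others. Of 9 further complex I assembly genes, Tmem126a and Nubpl rose in OVE918 (log2FC 0.50 and 0.36, edgeR FDR 0.0126 and 0.0473), and of 8 further complex III genes Uqcc5 fell there (log2FC -0.60, edgeR FDR 0.0171). None of 3 complex II or 5 complex V assembly genes and none of 10 genes of electron carriers and coenzyme Q synthesis was called against WT in the edgeR test. Of these 18, 5 had an unadjusted p under 0.05 in OVE853 and 3 in OVE918, beside 3794 and 3688 of 11108 genes. DESeq2 called 3 of the 18 lower in OVE853 and 1 higher in OVE918. Limma-voom called 4 lower in OVE853, and 1 higher and 2 lower in OVE918. Over all genes DESeq2 called 1219 higher and 1319 lower in OVE853, and 1241 and 1488 in OVE918. Limma-voom called 2083 higher and 1986 lower of all genes in OVE853, and 1404 and 1578 in OVE918. Of 15 regulators of mitochondrial biogenesis only Esrra, a nuclear receptor that activates respiratory genes, fell in OVE918 (log2FC -0.55, edgeR FDR 0.0079), with a value of -0.40 in OVE853 (edgeR FDR 0.052). Of 26 import genes only the chaperonin gene Hspd1 was called higher, in OVE918 (log2FC 0.35, edgeR FDR 0.0385). Of these calls, those of Higd1a and Esrra were kept in all 21 other settings. The others were lost in 7 for Coa3, 3 for Coa6, 2 for Tmem126a, 4 for Uqcc5 and 12 for Hspd1, and in 16 for Nubpl, including all 10 fits with 1 library left out.

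**Figure D5:**
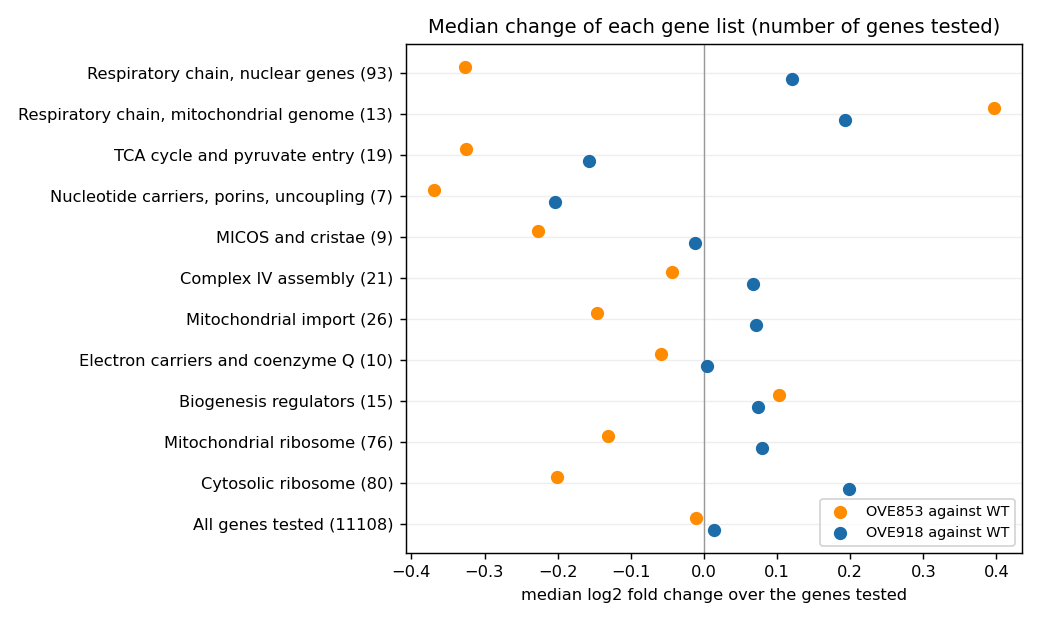
Median log2 fold change against WT over the tested genes of each list (number in brackets), for OVE853 (orange) and OVE918 (blue). The nuclear respiratory chain lies at -0.33 in OVE853 and 0.12 in OVE918, the mitochondrial genome above 0 in both, and the cytosolic ribosome at -0.20 and 0.20.

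Some other measures moved together with the member sums and others did not, and their part in the result was not tested. Lens fiber markers (9 tested) had medians of -0.31 in OVE853, 0.58 in OVE918 and 0.96 between the lines. None was called in the edgeR test, and 2, 2 and 6 had an unadjusted p under 0.05. Their sum ordered the libraries as the member sum did within OVE853 and within OVE918, but in reverse within WT. Cytosolic ribosomal protein genes (80 tested) had medians of -0.20 in OVE853, 0.20 in OVE918 and 0.41 between the lines, with 76 of 80 higher in every OVE918 than in every OVE853 library (all genes 13.3%), and their sum was highest in OVE918 replicates 4 and 1. None of the 80 was called in OVE853 in the edgeR test, and 13 had an unadjusted p under 0.05 (all genes 3794 of 11108). DESeq2 called 2 of the 80 there (all genes 1219 higher and 1319 lower) and limma-voom 43 (all genes 2083 and 1986). Rpl39 and Rpl29 rose in OVE918 (log2FC 0.76 and 0.40, edgeR FDR 0.00374 and 0.0349), the Rpl39 call being kept in all 21 other settings and the Rpl29 call lost in 11. Mitochondrial ribosomal genes (76 tested) had medians of -0.13, 0.08 and 0.22, and Mrps6 fell in both lines (log2FC -0.85 and -0.86, edgeR FDR 0.00348 and 0.00122). Mrpl27 fell in OVE853 (log2FC -0.37, edgeR FDR 0.0475) and Mrpl18 rose in OVE918 (log2FC 0.32, edgeR FDR 0.0346). Both Mrps6 calls were kept in all 21 other settings, while those of Mrpl27 and Mrpl18 were lost in 13 and 12. The sum of the lens epithelium markers, most of it Cryaa, was lower in every OVE853 library than in every other library, while 3 of its 8 genes had a positive log2FC in OVE853 and 2 were called lower, as were 2 in OVE918. Coding regions of members are short, and 66 of 90 members with a coding length had under 600 nt. Such members had a median log2FC of -0.35 in OVE853, against -0.21 for longer members, -0.17 for all genes under 600 nt and 0.03 for all longer genes. Between the lines the same 4 medians were 0.47, 0.25, 0.20 and -0.07. Among the WT libraries, replicate 3 held the highest value for 73 of 97 members (75.3%, all genes tested 40.4%), and without it the median of the members in OVE853 was -0.29. Markers of the non-pigmented ciliary epithelium (9 genes, none at 0), which borders the lens, summed to 830.3 to 1257 CPM in WT, 250.3 to 292 in OVE853 and 182 to 305 in OVE918. Cornea epithelium markers (8 genes, of which Krt12, Krt5 and Trp63 were at 0 in some libraries) summed to 2670.3 to 4349 CPM in WT, 2183 to 2325 in OVE853 and 1867 to 2158 in OVE918. The 3 cornea markers tested differed among themselves. Their log2FC ran from -3.65 to -0.07 in OVE853, with 1 called lower (all genes 7.7%). In OVE918 it ran from -4.11 to 0.62, with 1 called higher (all genes 7.98%) and 2 lower (all genes 11%). Macrophage markers (9 genes, none at 0) summed to 16.4 to 41.3 CPM in WT, 40.3 to 67.0 in OVE853 and 29.9 to 77.0 in OVE918. The median coefficient of variation of a member was 9.30% in WT, 6.40% in OVE853 and 18.3% in OVE918, beside 12.6%, 6.28% and 12.1% over all genes tested.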

How the data were processed

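RNA-seq libraries of 10 pools of lens epithelial explants (3 WT, 3 OVE853, 4 OVE918) were sequenced as paired reads of 150 bp from RNA with a RIN above 7. Adapters were removed by the authors with Cutadapt 5.2, STAR 2.7.11b placed the reads on GRCm39, and the authors summarised read pairs on exons of the RefSeq genes with featureCounts 2.0.8 in reverse-stranded mode. Reads with several alignments were not counted. The values deposited by the authors are raw counts without normalization, and 0 columns lacked a sample.

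The count analysis here used edgeR 4.0.16 under R 4.3.3 (TMM, robust dispersions, quasi-likelihood fit of 3 groups without intercept, 3 contrasts). Genes entered with at least 2 FPKM in 5 of 10 libraries, on GENCODE vM39 exon lengths matched by symbol. Levels per length used the Ensembl canonical transcript, so that comparisons between genes depend on its annotated ends. SE is the log2FC divided by the root of its F statistic. Library totals and the spread between pools limit the precision. The steps were tested on simulated data.

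Alternatives were DESeq2 1.42.0 size factors, upper-quartile factors, library totals, DESeq2, limma 3.58.1 voom with sample weights, 3 other filters, the replicate number as a block, only the groups compared, and leaving out each library, to which leaving out OVE918 replicates 1 and 4 together was added after seeing the data. Genes are named where they are member DEGs, the most abundant subunit or the member with the smallest FDR of a complex, members of isoform pairs, complex II genes, the 5 largest called rises and falls of a contrast, or the 3 smallest FDR of another list with a call. Of the other lists only genes past the threshold are printed, besides Esrra and Acta2 in OVE853. Ndufs1, Ndufaf1, Uqcrfs1, Atp5mk, Atp5if1 and the gene copies were chosen after their values were seen. The members, the gene lists and the markers were chosen with earlier results of these data known.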

Additional observations from a re-analysis of the deposited data

Results flagged for a closer look

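Among 52 sets of OVE918 values tested for a sample far from the others (named members and sums by complex), 1 stood out, and chance alone flags about 1 in 20 groups. Uqcrc1 was 108 CPM in OVE918 replicate 4, against 90.0 in the nearest of the other 3 libraries, a gap of 0.840 of the range. OVE918 replicate 4 also had the highest sum of the members and of the lens fiber markers, whose part in this value was not tested.

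The effects of the transgenic lines differed by a direct test for 2 members. Cox6c had a log2FC of 0.72 and Cox7b of 0.64 in OVE918 against OVE853 (edgeR FDR 0.039 and 0.0487), each higher in 4 of 4 OVE918 libraries than in any OVE853 library. These calls were lost in 8 and 13 of 21 other settings, and the number of members called in this contrast, in either direction, was 0 with filterByExpr and with the replicate block, 43 with DESeq2 and 61 with limma-voom. Over all genes these settings called 19, 9, 513 and 984 higher and 49, 41, 443 and 1177 lower.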

How the results depend on the processing

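The negative direction in OVE853 held for 81 to 86 members in all 21 alternatives, with medians from -0.38 to -0.25, whereas the number of called genes did not. Members lower in OVE853 (6) numbered 2 with upper-quartile factors, 0 with library totals only, 28 with DESeq2, 57 with voom, 34 with only the groups compared, 49 without OVE918 replicates 1 and 4 and 1 to 46 with 1 library left out. Over all genes (855) the same settings gave 771, 391, 1319, 1986, 824, 1238 and 324 to 1317. Members higher in OVE853 and member DEGs (2 each) were 1 to 3 and 1 to 2 with 1 library left out. Over all genes 902 were higher in the main fit and 409 to 1330 with 1 library left out. DEGs over all genes were counted in the main fit only. Members higher in OVE918 (4) were 8 with DESeq2 and with voom, 7 with no filter, 2 with only the groups compared, 1 without replicates 1 and 4 and 2 to 8 with 1 library left out. Over all genes (886) the same settings gave 1241, 1404, 1093, 550, 659 and 609 to 1083. Members lower in OVE918 (1) were 3 with filterByExpr and 2 with no filter, and DEGs (1) 4, 3 and, with 1 library left out, 1 to 2. Of all genes, 1225 of 11108 were lower in the main fit, 1813 of 18058 with filterByExpr and 1641 of 31082 with no filter. Both filters test Cox8b and the other low isoforms as well. Members higher in OVE918 than in OVE853 (2) were 42 with DESeq2, 60 with voom, 4 with only the groups compared, 1 with upper-quartile factors and with library totals, 0 with filterByExpr and without replicates 1 and 4, and 0 to 33 with 1 library left out. Over all genes (41) the same settings gave 513, 984, 158, 30, 28, 19, 1 and 1 to 278. Members lower (0) were 1 with DESeq2 and with voom. Library totals put the summed FPKM of complex V in OVE853 at 0.860 of WT in place of 0.814. Their median of all genes was 0.07, -0.08 and -0.20 in the 3 contrasts. The median of the members in OVE918 against WT (0.120) turned to -0.0738 without OVE918 replicates 1 and 4 and to -0.00276 with the replicate block, and ranged from -0.00980 (without OVE918 replicate 4) to 0.157 (without OVE918 replicate 2) with 1 library left out. The cause of these changes was not tested. Of 1827 values of single named members under an alternative, 1653 kept their side of the threshold, 86 lost it, 88 passed it and 0 reversed a call.

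Libraries with the same replicate number did not deviate together (correlations -0.32 to 0.10), so the number was not taken as a pairing. With the replicate block 14 members were lower in OVE853 (all genes 771) and 0 were higher in OVE918 than in OVE853 (all genes 9), and 4 were higher in OVE918 than in WT (all genes 709).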
